A study of Mus musculus with 4 samples.

Results

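The 10 genes described here encode the constant parts of the early antibody receptor of B cells and the proteins that assemble with it. They are the heavy chain constant genes Ighm and Ighd, the light chain constant genes Igkc, Iglc1, Iglc2 and Iglc3, the joining chain Jchain, and the surrogate light chain family genes Vpreb1, Vpreb3 and Igll1. They were chosen by symbol, as 10 of the 32285 genes of the count tables, and each symbol had 1 entry. Single-cell RNA had been counted in live CD45+ cells, that is immune cells, sorted from digested hearts of neonatal C57BL/6 mice with the atria removed. The mice were PD1 Het (+/-) or PD1 KO (-/-), so that every group carried a PD1 deletion on at least 1 chromosome and none was wild type. At postnatal day 2 they underwent myocardial infarction (MI) or a sham procedure, and 7 days passed before hearts were collected. Each combination of genotype and operation (Het_sham, KO_sham, Het_MI and KO_MI) is 1 library, made from an unstated number of animals, so no value below can be set against a spread between replicates and no test was made. In every list of 4 values the order is Het_sham, KO_sham, Het_MI and KO_MI.

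A B cell first joins the segments of its heavy chain gene and places the mu chain, encoded by Ighm, on its surface with a surrogate light chain made of the Vpreb1 and Igll1 proteins. Once a kappa or lambda light chain gene has been joined, the light chain takes the place of the surrogate and the cell carries IgM. Maturing B cells also make the delta chain from Ighd by splicing the same primary transcript as for Ighm, and antibody-secreting cells use the J chain to link IgM or IgA into larger complexes.

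The libraries held 7745, 7787, 6157 and 8379 barcodes with 52701847, 66587021, 60461796 and 72002420 UMIs (unique molecular identifiers, each a counted RNA molecule). Of these barcodes, 5376, 6407, 5074 and 7104 had at least 500 UMIs, at least 200 genes and at most 10% mitochondrial UMIs and were kept. Pdcd1, which encodes PD1, had 61, 73, 125 and 434 UMIs in the kept cells, but reads at the 3′ end of a transcript do not show whether another part was deleted, so these counts check no genotype label. Among B-like cells (defined below), Y-linked genes had UMIs in 300, 425, 372 and 0 cells and Xist in 32.3%, 30.2%, 22.3% and 86.9%, so the KO_MI library stood apart from the other libraries in the sex of its B-like cells. No pair of libraries shared more than 2 barcodes among B-like cells.

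B-like cells were those with at least 3 UMIs from at least 2 of a list of B cell genes that included Cd79a, Cd79b, Ms4a1, Ebf1 and Pax5, and without the markers of another lineage at 3 UMIs and 10% of that lineage's own median. They numbered 959, 1064, 746 and 715, which was 17.8%, 16.6%, 14.7% and 10.1% of kept cells. The gate used none of the 10 genes, but which droplets it admits moves some of their values, as given below for Vpreb1, Igll1 and Jchain. Droplets that reached the B gate but also carried another lineage were left out, and their share was lowest in Het_sham and highest in KO_MI, at 22.0%, 33.1%, 38.6% and 45.2%. Ptprc, which encodes CD45, had a UMI in 73.6%, 72.1%, 73.1% and 59.9% of B-like cells. The summed markers of mononuclear phagocytes, a list of 9 genes with none at 0, reached between 131 and 213 CPM (UMIs per 1000000 UMIs of the cells summed) in B-like cells and were highest in KO_MI. The 3 T cell markers lay between 5.09 and 32.4 CPM and were highest in Het_sham, and their part in the results was not tested. The median depth of B-like cells was 3877, 3790.5, 4015 and 3184 UMIs, lowest in KO_MI.

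B-like cells were split by genes that mark their stage. A recombination-gene gate held the cells with at least 2 UMIs of Rag1, Rag2, Dntt and Il7r, which act in gene joining and early growth, and it took 46, 53, 37 and 40 cells. The gate had been set for pro-B and pre-B cells, but 121 of its 176 cells (68.8%) had at least 10 light chain UMIs, a share of 82.6%, 77.4%, 56.8% and 52.5% in the libraries. Most of its cells therefore went against that name, and it is called by its genes here. Rag1 had a UMI in 166 of the 176 cells. Those with fewer than 3 UMIs of the division genes Mki67, Top2a, Birc5, Cdk1, Ube2c and Ccnb2 are called its resting cells (37, 50, 34 and 36). The other B-like cells were split by the UMIs of a list of genes of more mature B cells, which included Fcer2a, Cr2 and Ccr7, into those with 0 UMIs (106, 137, 94 and 117 cells), 1 UMI (184, 210, 149 and 163 cells) and at least 2 UMIs (623, 664, 466 and 395 cells). The group with at least 2 UMIs, called more mature below, made up 65.0%, 62.4%, 62.5% and 55.2% of B-like cells. These bins also differ in depth, since a deeper cell more often shows a second UMI: the median was 3025, 2788, 2907 and 2528 UMIs at 0 UMIs and 4562, 4534.5, 4935 and 4064 in more mature cells. After thinning every cell to 2000 UMIs the more mature share was 37.0%, 34.6%, 33.0% and 33.2%.

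Ighm was detected in nearly every B-like cell and stood at a similar level in all 4 libraries. It is a gene of 6 exons at chr12:113418558-113422730, minus strand, in GRCm38, the build of the GENCODE annotation used for all gene positions here. Its level in B-like cells was 4550, 4776, 4986 and 4330 CPM, with a UMI in 100%, 99.9%, 100% and 99.6% of cells and a median of 18, 19, 21.5 and 14 UMIs per cell. The levels spanned a narrow range, with Het_MI highest and KO_MI lowest. In the resting cells of the recombination-gene gate Ighm was at 5705, 5713, 6784 and 5776 CPM, above the 4414, 4666, 4674 and 4278 CPM of more mature cells in each library. The 0-UMI cells gave 5098, 5048, 5798 and 4155 CPM, between those levels in 3 libraries and below the more mature cells in KO_MI.

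Ighm was also the one of the 10 genes with many UMIs outside B-like cells. In mononuclear phagocytes (macrophages, monocytes and related cells, gated by their own markers) it reached 147, 133, 142 and 120 CPM, with a UMI in 52.4%, 52.5%, 57.5% and 47.9% of cells, or 22.9%, 21.5%, 24.1% and 20.5% after thinning. T cells had 153, 154, 157 and 137 CPM, while neutrophils had 37.1, 39.8, 46.9 and 29.0 CPM. These levels lie far below those of B-like cells, and their order was the same in each library, with T cells highest and neutrophils lowest. Igkc did not follow Ighm there. The number of Ighm UMIs per Igkc UMI was 0.608, 0.714, 0.841 and 0.683 in B-like cells, but 23.2, 19.4, 23.5 and 21.8 in mononuclear phagocytes, and in neutrophils 1.83, 2.06, 2.43 and 3.57. In each library the ratios of phagocytes and of neutrophils lay above that of B-like cells beyond the counting intervals. Plasmacytoid dendritic cells were few (2, 4, 7 and 10 cells), and Ighm lay between 585 and 710 CPM in them.

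Ighd was 1 of the 2 heavy chain genes and lay lower in both KO_MI and Het_MI than in the sham libraries when set against Ighm. It has 5 exons at chr12:113406604-113416324, minus strand, and starts 2233 bases past the end of Ighm in the direction of transcription. Its level in B-like cells was 290, 297, 269 and 207 CPM, and 64.3%, 67.3%, 62.1% and 49.1% of cells had a UMI. At equal depth after thinning, that share was 41.3%, 45.4%, 41.0% and 34.0%. KO_MI was lowest on each of these measures, and the others lay close together. Mononuclear phagocytes held between 0.763 and 1.40 CPM of Ighd, so the background of this gene was low.

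The ratio of the heavy chain genes does not depend on how many other RNAs a cell holds. There were 6.36 Ighd UMIs per 100 Ighm UMIs in Het_sham (95% interval 6.03 to 6.71), 6.22 in KO_sham (5.92 to 6.54), 5.40 in Het_MI (5.09 to 5.73) and 4.77 in KO_MI (4.41 to 5.16). All intervals given here cover counting error only, not differences between animals. The sham intervals overlapped each other, and both lay above both infarction intervals. In more mature cells the ratio was 6.82, 6.62, 5.97 and 5.28, and in 1-UMI cells 5.39, 5.07, 4.47 and 3.80. The 0-UMI cells gave 5.10, 5.85, 3.60 and 4.12, and resting cells of the recombination-gene gate 5.47, 5.52, 3.54 and 3.27. In each of these 4 stage bins both infarction libraries were below both sham libraries, although many of the intervals in the small bins overlapped. The more mature value moved with how those cells were selected. The median share of mitochondrial UMIs in B-like cells was 6.69%, 6.55%, 6.61% and 6.15%. With the limit at 5%, which left 121, 141, 103 and 151 B-like cells, the ratio was 4.07, 5.48, 3.40 and 3.81, with both infarction libraries still below both sham libraries. With cells thinned to 2000 UMIs before gating it was 7.30, 7.94, 7.51 and 7.55, and that order was lost. Zfp318, a factor needed for the processing of Ighd transcripts, was at 37.9, 33.9, 29.6 and 21.6 CPM in B-like cells. It was at 37.3, 37.4, 29.5 and 23.5 CPM in more mature cells and at 41.6, 31.2, 27.6 and 13.4 CPM in 0-UMI cells. Resting cells of the recombination-gene gate, with few UMIs of it, gave 35.5, 14.1, 0 and 11.8 CPM. In these bins both infarction libraries were below both sham libraries. In 1-UMI cells Zfp318 was at 43.4, 24.7, 39.0 and 23.1 CPM, where the order of libraries differed from that of the ratio. The part of Zfp318 in the ratio was not tested.

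**Figure D1:**
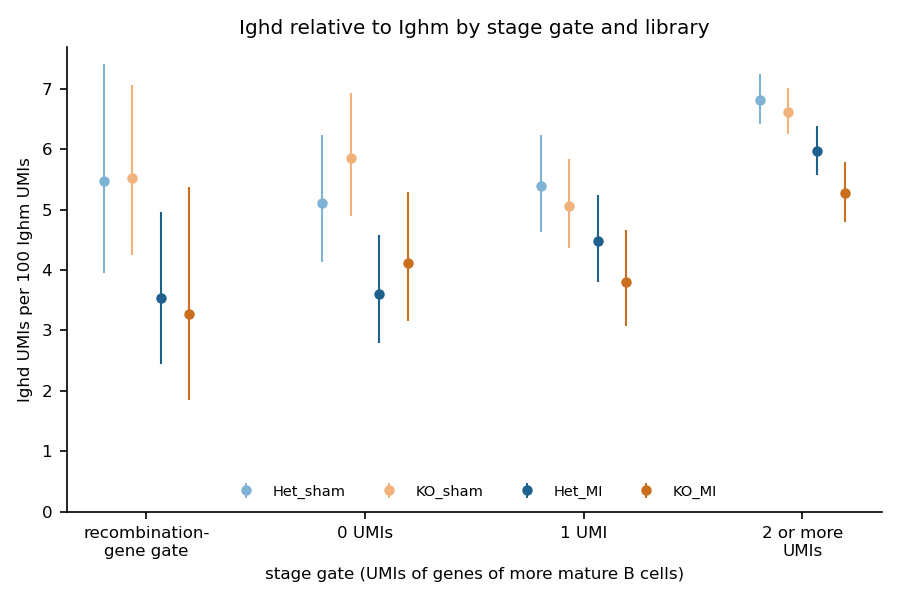
Ighd UMIs per 100 Ighm UMIs (vertical axis) in 4 stage bins of B-like cells (horizontal axis; the recombination-gene bin shows its resting cells), 1 point per library with the 95% counting interval. In each bin the Het_MI and KO_MI points lie below the Het_sham and KO_sham points.

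Igkc, the constant gene of the kappa light chain, was the most abundant of the 10 genes when summed over all B-like cells. It is a single exon at chr6:70726435-70726966, plus strand. Its level in B-like cells was 7481, 6693, 5927 and 6335 CPM, and 95.8%, 95.5%, 94.6% and 95.8% of cells had a UMI. Het_sham was highest and Het_MI lowest. Among the 4 stage bins, Igkc was lowest in the resting cells of the recombination-gene gate in every library, at 6783, 5416, 4285 and 4583 CPM. There it was below Ighm in KO_sham, Het_MI and KO_MI. The few other cells of that gate (9, 3, 3 and 4) were lower still, at 5580, 4177, 1483 and 1531 CPM. In 0-UMI cells it was at 8849, 7738, 6673 and 7100 CPM, in 1-UMI cells at 8404, 7680, 6344 and 7517 CPM and in more mature cells at 7225, 6458, 5870 and 6050 CPM. Its highest bin was that of 0-UMI cells in 3 libraries and that of 1-UMI cells in KO_MI, and Het_sham was the highest library in each bin. The level in mononuclear phagocytes was 6.36, 6.87, 6.05 and 5.49 CPM.

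The lambda light chain genes lie on chromosome 16, minus strand. Iglc1 is at chr16:19061618-19062071, Iglc3 starts 3158 bases from it at chr16:19065230-19065681, and Iglc2 is at chr16:19198396-19200351, 132714 bases from Iglc3. Iglc2 and Iglc3 are near-identical copies: 303 of 315 aligned coding bases (96.2%) were the same, against 73.4% between Iglc1 and Iglc2 and 74.5% between Iglc1 and Iglc3. The last 100 bases of the transcripts, where reads of a 3′ library fall, were 86.5% identical between Iglc2 and Iglc3. The last 90 coding bases of each gene are shown because they tell how far reads can separate the genes. They are from the GENCODE transcripts of GRCm38, read on the coding strand at chr16:19061755-19061844 for Iglc1, chr16:19198539-19198628 for Iglc2 and chr16:19065368-19065457 for Iglc3, and capitals mark the 29 positions at which the 3 genes are not all the same.
Iglc1: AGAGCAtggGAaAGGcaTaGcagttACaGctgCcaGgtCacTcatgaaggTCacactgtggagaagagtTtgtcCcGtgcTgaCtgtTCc
Iglc2: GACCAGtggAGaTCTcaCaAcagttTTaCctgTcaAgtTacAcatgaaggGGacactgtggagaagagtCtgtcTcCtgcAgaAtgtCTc
Iglc3: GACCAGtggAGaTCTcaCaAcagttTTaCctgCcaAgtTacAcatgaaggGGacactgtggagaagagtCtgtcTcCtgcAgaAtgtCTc
Iglc1 differed from Iglc2 at 29 of the 90 positions and from Iglc3 at 28, and Iglc2 differed from Iglc3 at 1. How the reads were divided between Iglc2 and Iglc3 is therefore uncertain, and their separate values are to be read with the sum.

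Iglc1 was the highest of the lambda genes in every library, at 1331, 1116, 861 and 1173 CPM in B-like cells. Iglc2 was at 680, 667, 582 and 463 CPM and Iglc3 at 564, 362, 392 and 379 CPM. Het_sham had the highest level of each gene, while the lowest library was Het_MI for Iglc1, KO_MI for Iglc2 and KO_sham for Iglc3. None of the 3 genes reached 2 CPM in mononuclear phagocytes. In plasmacytoid dendritic cells Iglc3 was at 65.0, 175, 152 and 231 CPM, with 0 UMIs of Iglc1 and of Iglc2 in all 23 of those cells, so the UMIs assigned to Iglc3 there did not come with those of its near-identical copy. A count of 0 in so few cells limits the level only loosely.

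Lambda genes gave about the same share of light chain UMIs in the 4 libraries. The share of Iglc1, Iglc2 and Iglc3 UMIs among those plus Igkc was 25.6%, 24.3%, 23.6% and 24.1% in B-like cells. It was 26.6%, 25.8%, 24.3% and 26.2% in more mature cells, 21.7%, 20.0%, 20.7% and 19.5% in 1-UMI cells and 24.6%, 20.4%, 17.6% and 18.7% in 0-UMI cells. More mature cells had the highest share among these 3 bins in every library. In the resting cells of the recombination-gene gate the share was 24.7%, 23.8%, 37.6% and 34.7%, higher in both infarction libraries, summed over 37, 50, 34 and 36 cells. The highest cell gave 13.4%, 12.5%, 25.5% and 13.1% of these lambda UMIs. Among the cells with at least 10 light chain UMIs (30, 38, 20 and 19), the mean share was 27.7%, 22.1%, 35.8% and 42.6%. The median share was 21.2%, 13.7%, 16.3% and 28.6%, with Het_MI below Het_sham, so the order depended on the measure.

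Most single cells lay between the limits set here for 1 light chain class. Of the 926, 1011, 674 and 645 B-like cells with at least 10 light chain UMIs, 46, 50, 33 and 36 had at least 90% lambda UMIs (4.97%, 4.95%, 4.90% and 5.58%). At most 10% lambda was found in 297, 374, 219 and 268 cells (32.1%, 37.0%, 32.5% and 41.6%). The rest, 63.0%, 58.1%, 62.6% and 52.9%, lay between these limits. A B cell as a rule keeps 1 light chain class, yet the median cell had 16.3%, 14.4%, 15.6% and 13.3% lambda UMIs, and 53, 90, 56 and 87 cells had 0. KO_MI had the largest share of kappa-led cells and the smallest share in between, and it was also the library with the shallowest B-like cells. The share of lambda UMIs in mixed cells was not separated here into RNA made by the cell and RNA from other cells.

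**Figure D2:**
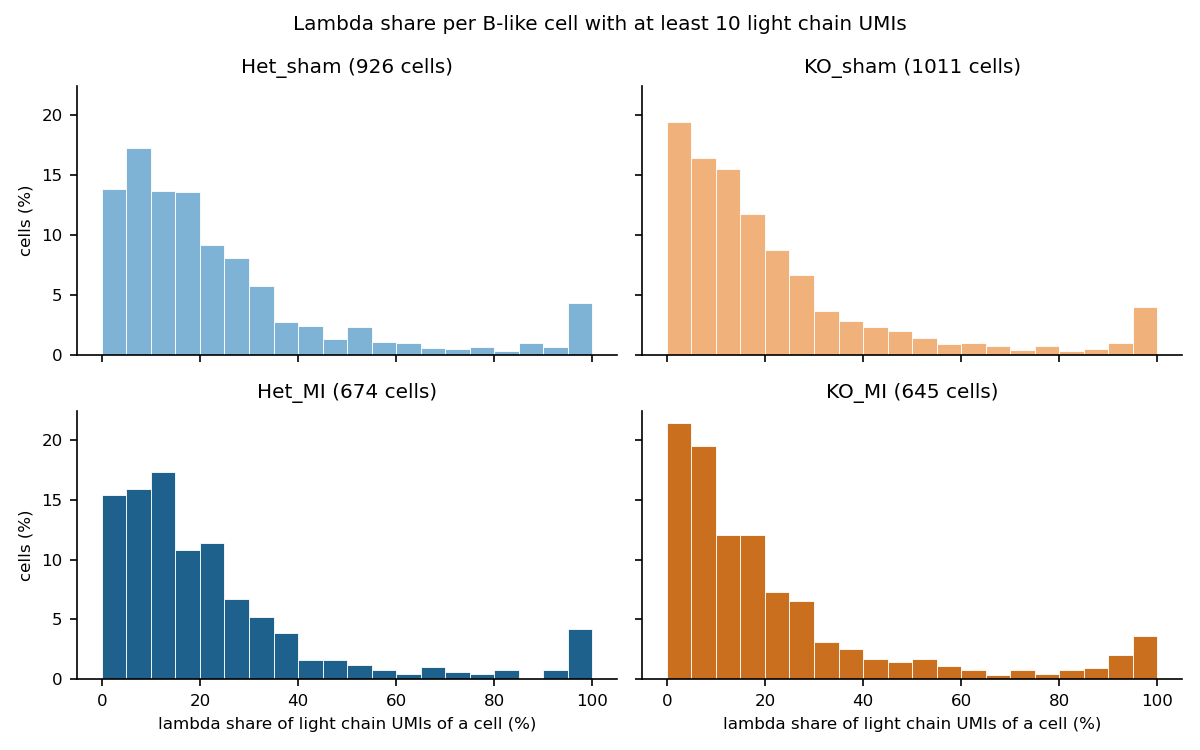
Lambda share of the light chain UMIs of a cell (horizontal axis, %) against the share of B-like cells with at least 10 light chain UMIs (vertical axis, %), 1 panel per library. Most cells lie below 40%, and 4.90% to 5.58% of cells lie at 90% or above, a limit with no gap beneath it in most libraries.

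The V segments gave a check of the light chain class that does not use the constant genes. UMIs of kappa V segments (Igkv) were few, at 241, 235, 212 and 161 in B-like cells, since 3′ reads seldom reach them. Those of lambda V segments (Iglv) were fewer still, at 50, 33, 35 and 25. Cells with an Iglv UMI and no Igkv UMI (34, 22, 20 and 17 cells) had a median lambda share of 48.5%, 44.3%, 67.4% and 74.5%. Cells with an Igkv UMI and no Iglv UMI (196, 183, 153 and 116 cells) had a median of 15.2%, 14.7%, 13.7% and 11.3%. The constant gene share was thus higher in cells with lambda V segments in each library, and cells with kappa V segments still held lambda constant UMIs.

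The 165 lambda-led cells were grouped by the lambda gene with the most UMIs in the cell, and UMIs were summed over each group. Iglc1 led in 97 cells, in which it gave 79.9% of lambda UMIs. Iglc2 led in 42 cells with 75.9%, and Iglc3 in 26 cells with 72.7%. In the cells led by Iglc3, 18.8% of lambda UMIs were counted to Iglc2. The leading gene is part of how these cells were sorted, so its share is a description.

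The surrogate light chain genes Vpreb1 and Igll1 were found in very few cells. Of the 4, 6, 7 and 10 B-like cells with a UMI of either gene, 2, 4, 4 and 7 had both. Vpreb1 is at chr16:16868403-16870843 and Igll1 at chr16:16860671-16863985, both on the minus strand with 4417 bases between them, and each has 3 exons. Since every cell with at least 3 UMIs of the pair (described below) had both, the promoter windows of both are shown, from 250 bases before to 50 bases after the RefSeq start, in GRCm38.p6, with E-box motifs (CANNTG on either strand, which read the same on both) in capitals. RefSeq windows were found for 4 of the 10 genes. The windows are chr16:16869206-16869505 for Vpreb1 and chr16:16863936-16864235 for Igll1, read on the minus strand.
Vpreb1: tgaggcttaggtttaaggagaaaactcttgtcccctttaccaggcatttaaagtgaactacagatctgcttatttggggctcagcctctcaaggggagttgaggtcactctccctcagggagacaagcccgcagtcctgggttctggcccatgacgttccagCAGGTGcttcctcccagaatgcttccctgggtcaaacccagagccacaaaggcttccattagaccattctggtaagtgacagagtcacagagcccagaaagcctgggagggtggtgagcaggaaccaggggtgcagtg
Igll1: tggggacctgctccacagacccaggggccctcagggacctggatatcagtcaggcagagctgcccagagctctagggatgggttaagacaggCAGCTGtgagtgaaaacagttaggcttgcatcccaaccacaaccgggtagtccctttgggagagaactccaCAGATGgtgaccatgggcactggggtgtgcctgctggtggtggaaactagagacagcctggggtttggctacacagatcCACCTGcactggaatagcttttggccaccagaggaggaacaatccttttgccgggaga
The Vpreb1 window held 1 E-box, 88 bases before the start, and the Igll1 window held 3, the first 158 bases before the start. An E-box was found in 72.3% of 32851 promoter windows of the same length, so its presence sets these genes apart from few others.

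Over all kept cells, 26 had at least 3 UMIs of Vpreb1 and Igll1 together, 4, 5, 8 and 9 in the libraries. All 26 cells had UMIs of both genes. The median cell held 12 Vpreb1 UMIs (2 to 57) and 7.5 Igll1 UMIs (at most 32), and Vpreb1 was the higher in 18 cells, Igll1 in 6. All 26 also had UMIs of Ighm and Vpreb3, 11 had Ighd and none had Jchain. Rag1, a subunit of the recombinase, had UMIs in 22 of them, and Dntt, the enzyme that adds bases at the joints of the heavy chain gene, in 17. By gate, 16 were B-like (15 of them in the recombination-gene gate), 3 met the secretory gate described with Jchain below, and 7 had no class. Of the 7 without a class, 4 were in Het_MI, 2 in Het_sham and 1 in KO_MI.

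These cells differed among themselves in light chain RNA. Of the 26, 13 cells had 0 light chain UMIs, 5 had 1 to 9 and 8 had at least 10. Ighm had a median of 6 UMIs (1 to 39) in the cells with 0 and of 24.5 UMIs (8 to 132) in those with at least 10, while the median depth was 6291 and 6934 UMIs. The median of Ighm was higher in the cells with light chain RNA, while the ranges overlapped. The highest Ighm values, 39 and 132, came from droplets without a class that held 56403 and 31489 UMIs. Whether these deep droplets were single cells was not tested. Vpreb3 had a median of 12 and 23 UMIs.

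**Figure D3:**
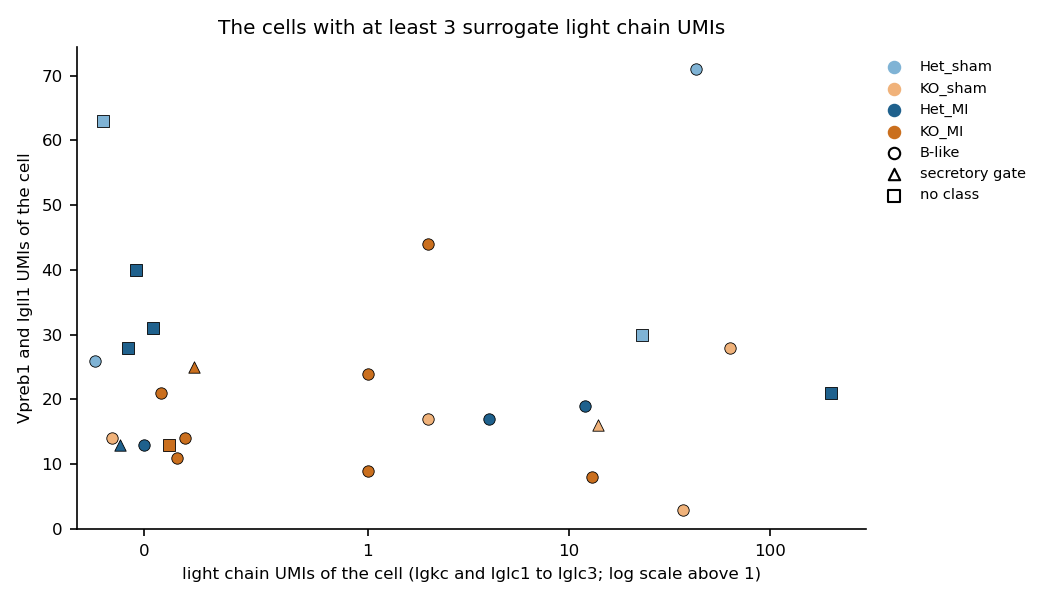
Light chain UMIs (horizontal axis, log scale above 1, the 13 cells at 0 set side by side) against Vpreb1 plus Igll1 UMIs (vertical axis) for the 26 cells with at least 3 surrogate light chain UMIs, coloured by library and shaped by gate. Surrogate UMIs reach across the range of light chain UMIs, and most KO_MI cells lie at 0 to 2 light chain UMIs. The point with the most light chain UMIs (201) is a Het_MI droplet without a class that held 31489 UMIs.

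Within the recombination-gene gate, 17 of 176 cells (9.66%) had a UMI of Vpreb1 or Igll1, namely 3, 4, 3 and 7 cells (6.52%, 7.55%, 8.11% and 17.5%). Their summed levels differed from those of the other 159 cells of the gate: Ighm was at 2683 against 5897 CPM, Igkc at 1867 against 5447 CPM and Iglc1 at 101 against 1258 CPM. Vpreb3 was higher in them, at 3578 against 1322 CPM, as was Dntt, at 559 against 18.0 CPM. Dntt and Rag1 both helped to define the gate, and Rag1 was at 570 and 697 CPM. In all B-like cells, 4, 6, 7 and 10 cells had a surrogate UMI (0.417%, 0.564%, 0.938% and 1.40%). In mononuclear phagocytes 4, 6, 9 and 3 cells did (0.262%, 0.249%, 0.448% and 0.105%), all with Vpreb1 and none with Igll1. In T cells 8, 1, 1 and 0 cells did (2.61%, 0.769%, 0.645% and 0%), again with Vpreb1 alone. B-like cells with Vpreb1 alone were 1, 2, 2 and 3, too few to set against these shares. The median depth of those phagocytes was 9358, 9609, 9937 and 8077 UMIs, above that of B-like cells.

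Summed over B-like cells, Vpreb1 was at 14.0, 7.36, 8.56 and 27.3 CPM (71, 41, 37 and 87 UMIs). Igll1 was at 5.53, 4.13, 4.16 and 14.7 CPM (28, 23, 18 and 47 UMIs). KO_MI was the highest library for both genes, and single cells weighed heavily: the top cell gave 80.3%, 48.8%, 37.8% and 37.9% of Vpreb1 UMIs and 50.0%, 39.1%, 33.3% and 25.5% of Igll1 UMIs.

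Vpreb3, an endoplasmic reticulum protein of early B cells that binds newly made mu chains, was by contrast widespread and followed the stage bins. It has 2 exons at chr10:75943057-75949657, plus strand. Its level in resting cells of the recombination-gene gate was 1561, 1736, 1737 and 2292 CPM. It was 786, 711, 768 and 610 CPM in 0-UMI cells, 471, 482, 478 and 421 CPM in 1-UMI cells and 219, 225, 202 and 226 CPM in more mature cells. The level was lower from bin to bin in every library, with no overlap between the libraries of neighbouring bins. Over all B-like cells it was nearly equal, at 345, 364, 342 and 372 CPM, with a UMI in 55.0%, 55.8%, 54.3% and 53.0% of cells, against at most 0.618 CPM in mononuclear phagocytes. The log2 ratio of 0-UMI over more mature cells was 1.84, 1.66, 1.93 and 1.43. With cells thinned to 2000 UMIs before gating it was 0.66, 0.49, 0.74 and 0.30, so the size of this step depended on the depth at which the bins were drawn while its direction was kept.

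**Figure D4:**
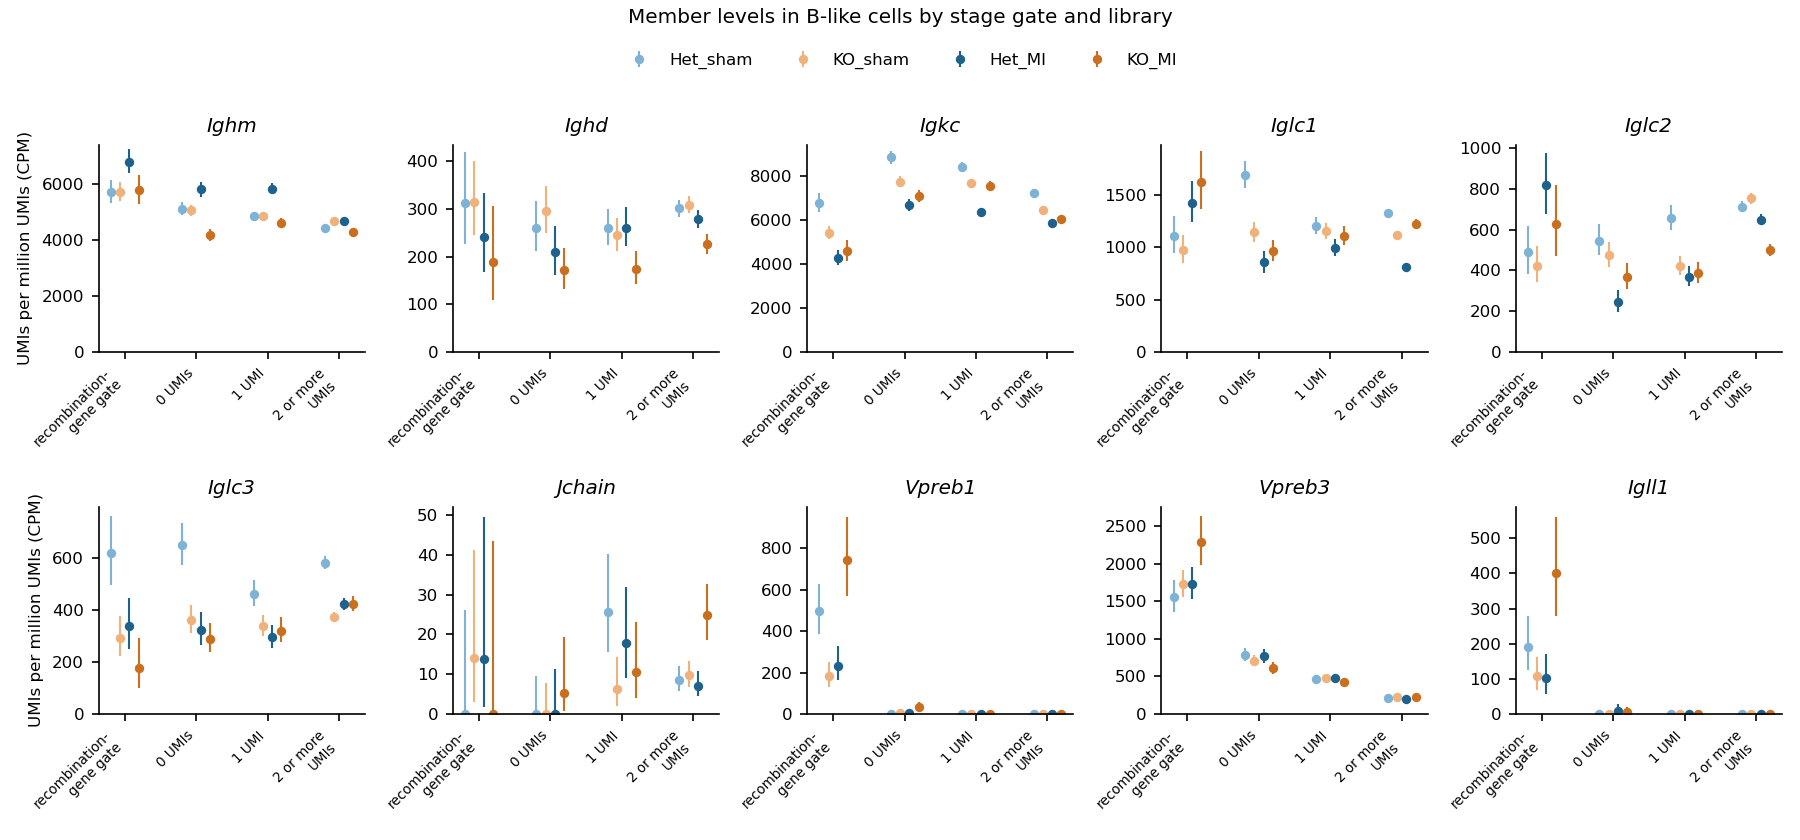
Level (vertical axes, CPM) of each of the 10 genes by stage bin (horizontal axis; the recombination-gene bin shows its resting cells, the others are labelled by UMIs of the genes of more mature B cells), 1 point per library with the 95% counting interval. Vpreb1 and Igll1 lie near 0 outside the recombination-gene bin, and Vpreb3 is lower from bin to bin in all 4 libraries.

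Jchain was rare, and its UMIs were concentrated in single cells. It has 4 exons at chr5:88519809-88527891, minus strand. Over all kept cells it had 120, 93, 402 and 105 UMIs in 52, 49, 67 and 57 cells. The high count of Het_MI came from 1 cell with 293 of the 402 UMIs (72.9%). That cell also had 1653 Ighm, 1159 Igkc and 0 Ighd UMIs, with 204 UMIs of Mzb1, a chaperone of antibody secretion, and 9 of Sdc1, the surface marker of plasma cells, among 46442 UMIs. The highest cell of Het_sham had 35 Jchain UMIs (29.2%), with 266 Ighm, 682 Igkc and 0 Ighd UMIs, while those of KO_sham and KO_MI had 7 and 14. In B-like cells Jchain was at 10.1, 8.80, 8.33 and 19.1 CPM, from 25, 24, 18 and 24 cells, and without the highest cell at 8.11, 7.74, 7.18 and 14.8 CPM.

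A secretory gate was set at 2 or more of Sdc1, Tnfrsf17, Prdm1, Derl3 and Mzb1, genes of antibody-secreting cells, and it held 48, 59, 42 and 34 cells. Its cells had at least 3 UMIs of B cell markers in 45, 58, 40 and 32 cases. Mzb1 was found in 48, 58, 41 and 32 cells and Prdm1 in 27, 31, 24 and 18. Sdc1 was found in 13, 11, 10 and 10 cells, Derl3 in 8, 17, 13 and 6 and Tnfrsf17 in 3, 2, 1 and 3. At least 3 of these genes were found in 3, 1, 4 and 1 cells. The markers were thus mixed, and the cells of this gate are not named as plasma cells here. Jchain in this gate had 41, 16, 305 and 6 UMIs. None of the 23 plasmacytoid dendritic cells, a cell type known to use Jchain, had a Jchain UMI, which allows little at that number of cells.

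RNA of other heavy chain classes, and of the lambda constant gene Iglc4, was close to absent. Ighg3 had 26, 15, 22 and 21 UMIs in B-like cells, Ighg2b 2, 5, 0 and 7, Igha 11, 11, 3 and 5, and Iglc4 4, 2, 2 and 2. Ighg1 had 0, 0, 1 and 0, and Ighg2c and Ighe had none.

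Between libraries, the 10 genes were compared by the log2 ratio of CPM in B-like cells, and a gene was called where the 95% counting interval lay beyond 1.5-fold. All 10 had the 30 UMIs over the 2 libraries that a comparison needed. In KO_MI over Het_MI, 2 of 10 were called, Vpreb1 and Igll1, both higher, while 0.428% of 8874 measured genes were called higher and 0.586% in either direction. In KO_MI over KO_sham the same 2 genes were called higher, beside 0.822% of 9123 genes higher and 1.02% in either direction. None of the 10 was called in Het_MI over Het_sham, where 0.814% of 9332 genes were called, or in KO_sham over Het_sham, with 0.419% of 9550. KO_MI over Het_MI and KO_MI over KO_sham hold the same KO_MI library, and the comparisons share other libraries pairwise, so they are not independent.

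Vpreb1 had a log2 ratio of 1.67 (1.10 to 2.27) in KO_MI over Het_MI and of 1.89 (1.34 to 2.46) in KO_MI over KO_sham. Igll1 had 1.82 (1.01 to 2.70) and 1.84 (1.09 to 2.62). Without the highest cell of each library the ratios were 1.67 and 2.17 for Vpreb1 and 1.98 and 2.13 for Igll1. The first of these differences rested on the class gate. With droplets that carried another lineage kept, Vpreb1 was at 0.28 and Igll1 at 0.23 in KO_MI over Het_MI, and at 1.67 and 1.62 in KO_MI over KO_sham. The ratios come from 7 B-like cells with at least 3 surrogate UMIs in KO_MI, 3 in Het_MI and 4 in KO_sham. Their intervals count UMIs, not cells. By cells, the share of B-like cells with a surrogate UMI was 1.40% (0.67 to 2.56) in KO_MI. It was 0.938% (0.378 to 1.92) in Het_MI and 0.564% (0.207 to 1.22) in KO_sham, and both of these intervals overlapped that of KO_MI.

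Ighd was lower in KO_MI, at -0.38 (-0.52 to -0.24) over Het_MI and -0.52 (-0.66 to -0.39) over KO_sham, short of the 1.5-fold limit in both. In Het_MI over Het_sham it was at -0.10 and in KO_sham over Het_sham at 0.04. Ighm differed less, at -0.20, 0.13, -0.14 and 0.07 in the order KO_MI over Het_MI, Het_MI over Het_sham, KO_MI over KO_sham and KO_sham over Het_sham, and all following lists of ratios keep that order. Igkc was at 0.10, -0.34, -0.08 and -0.16. Iglc1 was at 0.45, -0.63, 0.07 and -0.25, Iglc2 at -0.33, -0.22, -0.53 and -0.03, and Iglc3 at -0.05, -0.53, 0.06 and -0.64. All 4 light chain genes were lower in Het_MI than in Het_sham, without a call. Vpreb3 stayed between -0.01 and 0.12. Jchain was at 1.20 (0.58 to 1.84), -0.27, 1.12 (0.55 to 1.69) and -0.19, and with the secretory gate counted among B-like cells, an alternative chosen after seeing the data, it was at -1.87 in KO_MI over Het_MI, since the cell with 293 UMIs then entered. The median of the 10 genes was 0.11, -0.30, 0.05 and -0.18, and that of all measured genes -0.10, -0.00, -0.10 and -0.00. Scaling by TMM or median-of-ratios factors would add 0.09 to every ratio of KO_MI over Het_MI.

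**Figure D5:**
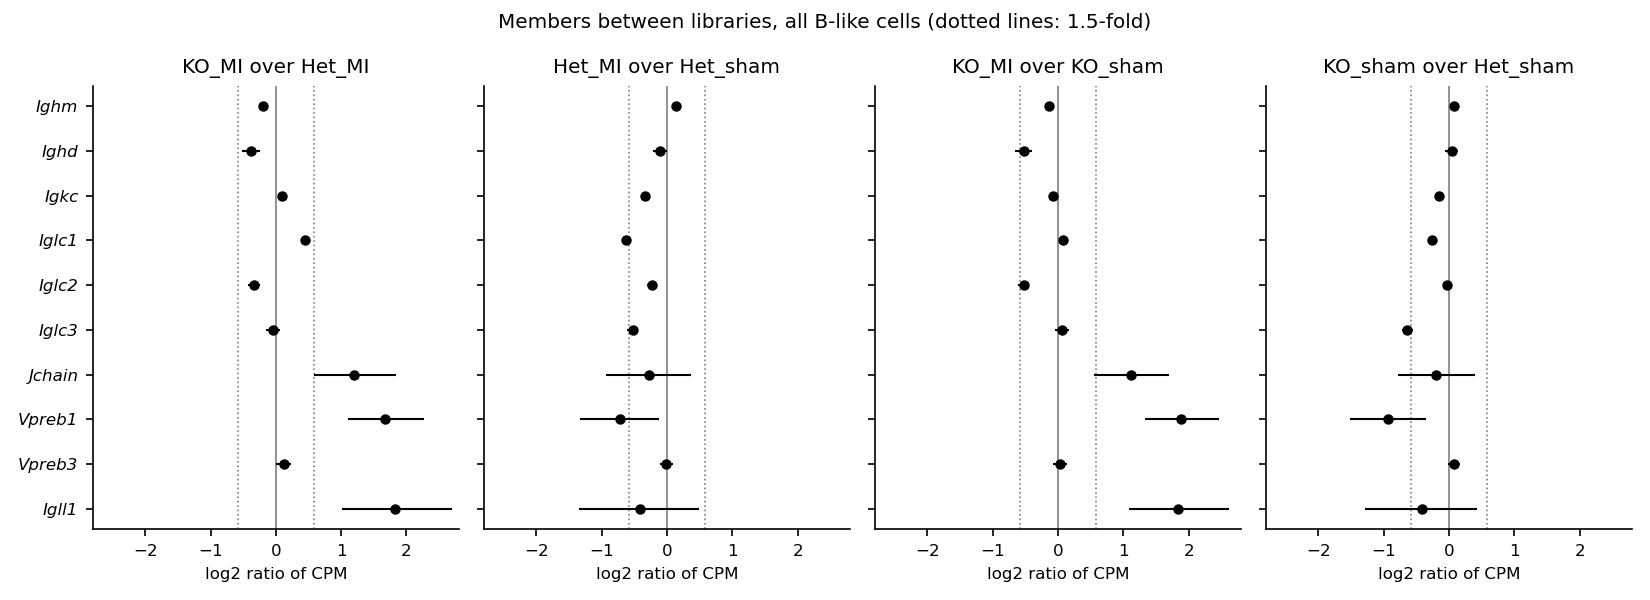
Log2 ratio of CPM (horizontal axes) of the 10 genes in B-like cells for the 4 comparisons, with 95% counting intervals and dotted lines at 1.5-fold. The intervals of Vpreb1 and Igll1 lie beyond the dotted line in KO_MI over Het_MI and KO_MI over KO_sham, and no interval does so in the other panels.

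Within stage bins, the calls were few and the depth lower. In resting cells of the recombination-gene gate, where 9 of the 10 genes had enough UMIs, Vpreb1 and Igll1 were called higher in KO_MI over Het_MI (1.67 and 1.96, with 0.626% of all genes called higher) and in KO_MI over KO_sham (2.02 and 1.89, with 0.779%). In KO_sham over Het_sham, Iglc3 (-1.08) and Vpreb1 (-1.44) were called lower there, beside 0.234% of all genes, and Vpreb1 was at -0.03 without the highest cells. In 0-UMI cells the lambda genes were all lower in Het_MI than in Het_sham: Iglc1 was at -0.98, Iglc2 at -1.15 and Iglc3 at -1.01, and these 3 of 7 measured members were called lower, with 0.701% of all genes. In 1-UMI cells only Iglc2 was called in that comparison (-0.83, with 0.256% of genes lower), and in more mature cells only Iglc1 (-0.70, with 0.31%). Jchain was called higher in more mature cells of KO_MI, at 1.80 over Het_MI (0.383% of genes) and 1.37 over KO_sham (0.692%). That bin held 147 Jchain UMIs in 66 cells over all libraries. It left out the secretory gate with the Het_MI cell of 293 UMIs, and counting that gate as B-like took the ratio over all B-like cells to -1.87 in KO_MI over Het_MI.

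Of the other genes of the pathway that were measured, only Dntt was called. Of 14 genes of B cell receptor signalling, all measured, 0 were called in any comparison, with a median of -0.12 in KO_MI over Het_MI and of -0.14 in KO_MI over KO_sham, close to the medians of all genes. Cd79a and Cd79b, the signalling chains of the receptor, were at -0.04 and 0.06 and the kinase Lyn at -0.09, and the list ran from Pik3ap1 (-0.58), an adaptor of phosphoinositide 3-kinase, to Vav1 (0.30), an exchange factor. Of 13 regulators of B cell development, 0 were called and 12 were below 0 in KO_MI over Het_MI, with a median of -0.28. The median of all measured genes was itself -0.10 there, below 0 but above that of the regulators. How many of all measured genes lay below 0 was not counted, so the 12 regulators have no such share beside them. Ebf1 (0.03) was the only regulator above 0, and Pax5 (-0.28), Pou2af1 (-0.43) and Spib (-0.49) were below. Of 8 recombination genes 6 were measured in that comparison with 0 calls, from Lig4 (-1.05), the DNA ligase of end joining, to Xrcc6 (0.66), a subunit of Ku, with Rag1 at 0.37, Dclre1c at -0.64 and Prkdc at 0.04. Dntt was called lower in Het_MI over Het_sham (-3.33) and in KO_sham over Het_sham (-2.43), from 59, 12 and 5 UMIs in Het_sham, KO_sham and Het_MI. Beside it, 0.814% and 0.419% of all measured genes were called in either direction. A single B-like cell with surrogate UMIs held 19 of the 59 Dntt UMIs of Het_sham. Dntt is named here because its values were seen. Of 7 secretion genes 3 were measured: Mzb1 was at 0.03, Irf4 at -0.08 and Xbp1, the factor of the secretory programme, at 0.43. Ighg3, the only measured gene of the other constant genes, was at 0.37.

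The genes whose level ran most alike were sought by Pearson correlation of log2(CPM + 10) over 16 sums, of 4 stage bins in 4 libraries, which share libraries and depth, so the values are a description. Vpreb3 ran closest to Chchd10 (0.989), Atp1b1 (0.972) and Ebf1 (0.971), and Ebf1 is itself a B gate gene. Vpreb1 and Igll1 ran with each other (0.983), and next came Smarca4 (0.968), Rag1 (0.967) and Pafah1b3 (0.946) for Vpreb1 and Rag1 (0.974), Tspan13 (0.960) and Smarca4 (0.959) for Igll1, where Rag1 helped to define the bins. Ighm ran with Dyrk2 (0.941), Syk (0.941) and Serinc3 (0.937), Ighd with Map3k1 (0.865), Itga4 (0.810) and Strada (0.783), and Igkc with Cd74 (0.898), Myl12b (0.891) and Gm42670 (0.882). For the lambda genes the leading values were lower for Iglc1 (Ino80c 0.806, Aasdhppt 0.778, Fxr2 0.773) and Iglc2 (Ahsa1 0.780, Cd38 0.774, Samm50 0.771) than for Iglc3 (Swap70 0.919, Lpcat1 0.913, Snx17 0.867). Jchain, at few UMIs, ran with Hspbp1 (0.818), Pak1 (0.795) and Abhd6 (0.793).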

How the data were processed

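Live CD45+ cells of 4 libraries were measured with 10x 3′ single-cell RNA-seq, per the labels' protocols. Per the submitters' processing notes, Cell Ranger 6.1.1 and Seurat 4 were the tools, whereas the matrices name Cell Ranger 4.0.0 per the file headers; mm10 and GRCm38 are the genome names in those notes. Each deposited matrix gives whole UMI counts that the authors had not scaled. How barcodes were called as cells is not given in the sources used here. No column was left unmapped (0), and no cell type annotation was used.

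Cells were kept at 500 UMIs, 200 genes and at most 10% mitochondrial UMIs, and classed by gates on raw UMIs of marker genes for 11 lineages. The members and lists were chosen with earlier results of these data known. UMIs were summed per gate and library and divided by the sum of all UMIs (CPM). Shares carry exact Clopper-Pearson intervals, levels exact Poisson intervals and ratios exact conditional binomial intervals, all at 95%. With 1 library per group no test was made. A gene was measured at 30 or more UMIs over 2 libraries and called where its interval lay beyond 1.5-fold, and a stage needed 20 cells in both libraries. Thinning drew 2000 UMIs per cell, and 26, 57, 33 and 104 B-like cells with fewer were left out. Scrublet marked 0, 0, 1 and 1 cells at its own threshold, too few to be of use, and doublets were handled by leaving out droplets with another lineage. Removing the top scores at 0.8% per 1000 barcodes (333, 399, 250 and 476 cells) was an alternative. The interval code was checked on simulated data.

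The 10 members were always named. Some genes of the gates and lists are not reported here by name. From each list, up to 4 genes with the most UMIs in B-like cells and the highest and lowest ratio of KO_MI over Het_MI among measured genes were named, and for each member the 3 genes most alike. Gene positions and lambda sequences came from the GENCODE annotation of GRCm38 and promoters from RefSeq GRCm38.p6. Python 3.11.15, numpy 2.4.6, scipy 1.17.1, pandas 2.3.3, scanpy 1.11.5, biopython 1.88 and matplotlib 3.10.9 were used, with R 4.3.3, edgeR 4.0.16 for TMM factors and DESeq2 1.42.0 for median-of-ratios factors, neither for a test. Alternatives changed the depth and mitochondrial limits, the gates, doublets, thinning, scaling, the sex of the cells and the highest cell.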

Additional observations from a re-analysis of the deposited data

Results flagged for a closer look

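For 3 members there were log2 ratios of MI over sham on opposite sides of 0 in Het and in KO hearts, each with a counting interval that did not include 0. Ighm was at 0.13 in Het hearts and at -0.14 in KO hearts, where the median of all measured genes was -0.10. Over the alternative settings Ighm ran from -0.0035 to 0.22 in Het hearts and from -0.18 to 0.034 in KO hearts, so neither sign was kept throughout. Iglc1 was at -0.63 in Het hearts and at 0.072 in KO hearts, or at 0.022 without the highest cell of each library, so the KO value is close to 0. Vpreb1 was at -0.71 in Het hearts and at 1.89 in KO hearts, but without the highest cell of each library the Het value was 0.94, so its sign rested on 1 cell. With 1 library per group, the difference between Het and KO hearts was not tested for any of these genes.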

How the results depend on the processing

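The leading values were the more mature, lambda and surrogate shares, Ighd per 100 Ighm UMIs, the Vpreb3 step between stage bins, and the ratios of KO_MI over Het_MI for Ighm, Ighd, Igkc, the lambda sum and Vpreb3. Of 269 comparisons of them with an alternative, 193 moved by less than their counting interval and 76 moved by more. None of the leading ratios was called, so that 0 called values changed sign was fixed beforehand. Igkc lay on the other side of 0 in 2 alternatives and Vpreb3 in 1. The called ratios of Vpreb1 and Igll1 were not among the leading values. None of these leading values moved with at least 1000 UMIs, a stricter B gate, a recombination-gene gate at 3 UMIs or top Scrublet scores removed. Leaving out the highest cell was run on ratios only: 0 of the 5 leading ratios moved, but 4 of 39 others did, and Vpreb1 then lay above 0 in Het_MI over Het_sham (0.94) and KO_sham over Het_sham (0.45). Among the other ratios, over all alternatives, 132 moved and 369 did not. Values below that give 4 numbers are in the order Het_sham, KO_sham, Het_MI and KO_MI, and ratios are log2 of KO_MI over Het_MI. The causes were not tested.

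With at most 5% mitochondrial UMIs, the more mature share was 58.2% in KO_sham, 57.3% in Het_MI and 48.3% in KO_MI. Ighd per 100 Ighm UMIs in more mature cells was 4.07, 5.48, 3.40 and 3.81, and the lambda share 23.2%, 25.4%, 22.9% and 27.8%. The surrogate share of the recombination-gene gate was 33.3%, 20.0% and 22.2% in Het_sham, KO_sham and Het_MI. The log2 ratio of Vpreb3 in 0-UMI over more mature cells was 1.44, 1.09, 3.94 and 0.61. The ratios were -0.17 for Ighm, -0.15 for Ighd, -0.24 for Igkc, on the other side of 0, and 0.90 for Vpreb3.

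With cells thinned to 2000 UMIs, the more mature share was 37.0%, 34.6%, 33.0% and 33.2%, Ighd per 100 Ighm UMIs 7.30, 7.94, 7.51 and 7.55, and the lambda share 24.0%, 22.0%, 22.2% and 20.4%. The Vpreb3 step was 0.66, 0.49, 0.74 and 0.30. The ratios were -0.32 for Ighm, 0.17 for Igkc, -0.12 for Vpreb3 and 0.016 for the sum of the lambda genes.

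With the more mature gate at 3 UMIs, its share was 49.8%, 46.1%, 47.3% and 38.9%, and the Vpreb3 step was 2.05, 1.88 and 2.26 in Het_sham, KO_sham and Het_MI. In cells with Xist and no Y-linked UMI, the lambda share was 29.1%, 21.0% and 21.4% in Het_sham, KO_sham and Het_MI, the Vpreb3 step 2.11 in Het_sham, Ighd per 100 Ighm UMIs 6.13 in KO_sham, the surrogate share 0% in Het_MI and the lambda ratio 0.33. As a mean over cells, the lambda share was 23.8%, 22.0%, 22.5% and 21.9%.

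With droplets of another lineage kept, the lambda share was 26.0% in Het_sham and 26.8% in KO_MI, Ighd per 100 Ighm UMIs 4.75 in KO_MI, and the ratios -0.0059 for Igkc and 0.23 for the lambda sum. With the secretory gate counted as B-like, chosen after seeing the data, Ighd per 100 Ighm UMIs was 6.40 in Het_sham and 4.97 in Het_MI, the lambda share 25.4% in KO_sham, and the ratios -0.27 for Ighm and 0.048 for Igkc. TMM factors gave -0.12 for Ighm, 0.18 for Igkc and 0.22 for the lambda sum, and median-of-ratios factors -0.11, 0.19 and 0.23.

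No paired analysis was possible because each group has 1 library. Surrogate and Jchain values rest on few cells, and UMIs of Iglc2 and Iglc3 could not be separated with certainty.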
